A study of Rattus norvegicus with 12 samples.

Results

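Becn1 and Sqstm1 encode proteins at the start and at the cargo end of autophagy, and their mRNA levels are described here in cells transfected with siRNA against Bcl-2. The genes were chosen by gene ID, ENSRNOG00000020513 for Becn1 and ENSRNOG00000003147 for Sqstm1, and are 2 of the 23978 rat genes in the deposited table. Both passed the filter on low counts, which left 12731 tested genes. The symbols came with that choice and could not be checked against the data, because the table holds IDs alone and 0 of them were found in the reference table of rat genes.

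Messenger RNA was sequenced in 12 libraries of OC1, a cultured line that the labels describe as sensory epithelium of the cochlea. There were 4 libraries for each of 3 groups: a negative control siRNA (genotype tag WT), and siRNA 1423 or siRNA 1928, both directed at Bcl-2 and tagged as its knockdown. All groups were transfected with the same lipid reagent, and the labels also carry a plasmid tag, which disagrees with the siRNA named in their protocol. Replicates are lettered A to D, and nothing says that they were separate cultures, so each p-value measures the spread between these libraries, which may be technical. All results come from 1 cell line, and the level of Bcl2 itself and the markers of the labelled cell type were not analysed here. The submitters name the species as rat; a line of similar name, HEI-OC1, is from mouse, and the sources used here do not say whether the 2 are the same. If the cells were of mouse origin, the counts and CPM would come from mouse reads assigned to rat genes, and the rat sequence shown for Sqstm1 would not be that of the cells.

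Autophagy encloses cytoplasm in a double membrane and delivers it to lysosomes for breakdown. Beclin 1, the product of Becn1, is a subunit of the lipid kinase complexes that mark the membrane where an autophagosome forms. BCL2 can bind the BH3 domain of beclin 1 and hold it away from those complexes, which is why the gene is of interest in cells with less BCL2. Sequestosome 1 (p62), the product of Sqstm1, binds ubiquitinated cargo and the LC3 proteins on the growing membrane and is itself degraded with the cargo. It also binds KEAP1, the inhibitor of the transcription factor NRF2, and Sqstm1 is in turn a known NRF2 target. Because p62 protein is consumed by autophagy, its mRNA and its protein can move separately, and only mRNA was measured here.

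The region upstream of Sqstm1 is shown because Sqstm1 was the gene of the pair whose mRNA fell. RefSeq places both genes on chromosome 10 of the GRCr8 assembly, Sqstm1 at chr10:35026598-35037750 and Becn1 at chr10:86731649-86747002. The counts were made on the mRatBN7.2 build, per the submitters' processing notes, so these positions locate the genes and were not used for counting. The 250 bases before the annotated start of Sqstm1, chr10:35037751-35038000 on the minus strand, read 5′ to 3′ as follows, with matches to the GC box GGGCGG and the TATA box TATAAA in capitals.
Sqstm1: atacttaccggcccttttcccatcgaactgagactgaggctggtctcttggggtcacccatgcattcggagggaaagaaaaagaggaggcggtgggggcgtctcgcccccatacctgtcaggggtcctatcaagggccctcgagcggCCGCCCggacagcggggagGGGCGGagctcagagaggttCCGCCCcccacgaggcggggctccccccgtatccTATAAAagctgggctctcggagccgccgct
Searching both strands gave 3 matches to GGGCGG, a motif found at least once in 30.5% of the 33469 upstream windows of this length in the table. It gave 1 match to TATAAA, found in 12.9%. This window was 65.2% G or C against a median of 51.2% over all windows, so these shares do not come from windows of like composition. The TATA match begins 30 bases before the annotated start. CACGTG, the E-box core (5.59% of windows), and TGACNNNGC, the core of the antioxidant response element (10.1%), had 0 matches in this window. Sequence outside it was not searched, so matches further from the start could have been missed. The capitals mark letters that match and do not show that a factor binds there. Becn1 has no entry in the promoter table.

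Sqstm1 mRNA fell with both siRNAs, while Becn1 mRNA did not pass the test against control with either. Sqstm1 fell by 23.8% with siRNA 1423 and fell by 14.5% with siRNA 1928, and both groups lay wholly below the control libraries. Such separation from control, in either direction, was common, at 23.7% of tested genes with siRNA 1423 and 39.4% with siRNA 1928. Becn1 averaged 147 and 156 CPM in these groups against 148 CPM in the control. The number of Sqstm1 counts per Becn1 count was lower in all 8 libraries of the Bcl-2 siRNAs than in any of the 4 control libraries.

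Levels in CPM, counts per 1000000, were scaled between libraries by trimmed means of M values (TMM). Becn1 stood at 142, 144, 152 and 155 CPM in control replicates A to D. It stood at 146, 142, 149 and 150 CPM in those of siRNA 1423, and at 158, 151, 156 and 162 CPM in those of siRNA 1928. The siRNA 1423 libraries lay within the range of the controls, and those of siRNA 1928 reached above it but overlapped it. The group means were 148 ± 6.18 CPM in the control, 147 ± 3.42 CPM for siRNA 1423 and 156 ± 4.60 CPM for siRNA 1928 (SD, n = 4 each). Behind them lie 2383 to 3615 rounded counts per library. With a mean of 151 CPM over all libraries, Becn1 ranked above 88.6% of the tested genes in counts.

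Sqstm1 was among the genes with the most counts, above 98.9% of the tested genes in mean CPM, with 8804 to 17443 rounded counts per library. Control replicates A to D stood at 698, 718, 762 and 762 CPM. With siRNA 1423 the values were 528, 547, 576 and 588 CPM, all below the lowest control. With siRNA 1928 they were 617, 605, 645 and 645 CPM, again below every control library and above every library of siRNA 1423. The group means were 735 ± 32.3 CPM in the control, 560 ± 27.3 CPM for siRNA 1423 and 628 ± 20.2 CPM for siRNA 1928 (SD, n = 4 each). CPM are not corrected for transcript length, so the values of the genes show how each moved across groups and not which transcript was the more abundant. In bulk RNA, less Sqstm1 mRNA per cell and fewer cells with a high level cannot be told apart.

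**Figure D1:**
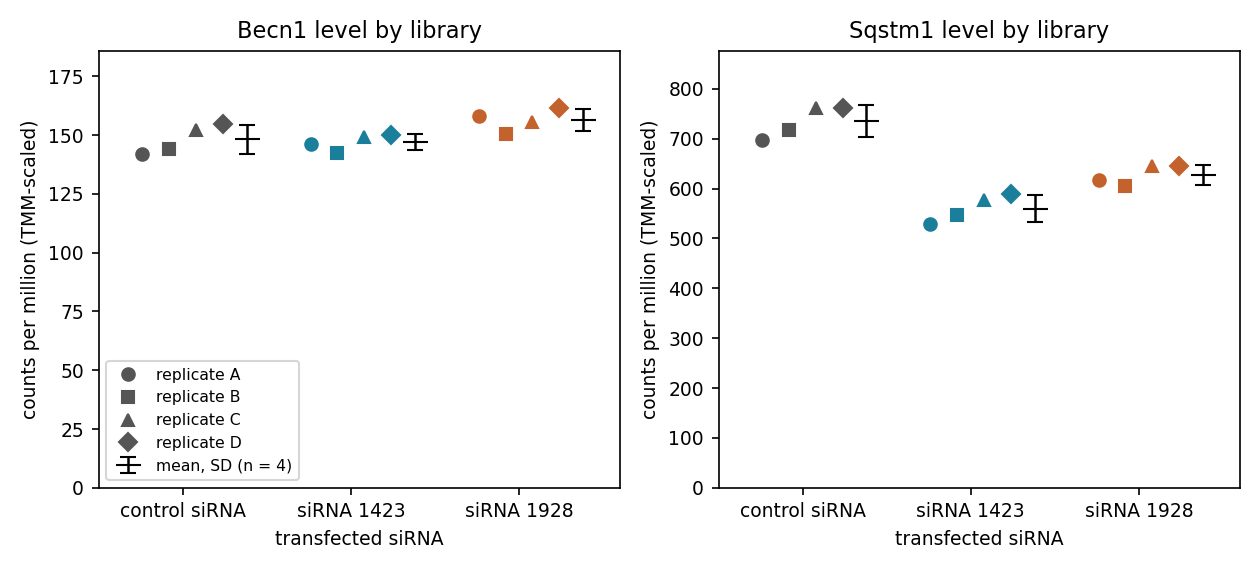
TMM-scaled CPM (vertical axes, starting at 0) of Becn1 (left) and Sqstm1 (right) by transfected siRNA. Each marker is 1 library, its shape gives the replicate letter, and the black bars are the mean and SD of 4 libraries. The Becn1 groups lie between 142 and 162 CPM and overlap between control and each Bcl-2 siRNA, while the 3 Sqstm1 groups are separate, with control highest and siRNA 1423 lowest.

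The comparison of siRNA 1423 with control asked whether transcripts of these autophagy genes changed in cells given this siRNA. Sqstm1 fell by 0.39 on the log2 scale (SE 0.0362, adjusted p = 6.15e-08, edgeR quasi-likelihood test adjusted over all tested genes). The 95% interval of the change ran from -27.7% to -19.7%. In this contrast 11.5% of tested genes were called lower and 23.7% had groups that did not overlap in either direction, while 4.02% of tested genes had a lower log2 fold change than Sqstm1. Becn1 had a log2 fold change of -0.013 (SE 0.0342, edgeR adjusted p = 0.832), with an interval from -5.65% to 4.12%. Missing the threshold does not show that the level was the same, and the interval gives the changes that these libraries leave possible.

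With siRNA 1928 the same question gave a smaller decrease of Sqstm1. It fell by 0.23 on the log2 scale against control (SE 0.0361, edgeR adjusted p = 2.3e-05), with an interval from -18.9% to -9.98%. With library size alone the log2 fold change of Sqstm1 was smaller, at -0.17. More genes moved in this contrast, 23.3% being called lower and 39.4% having groups that did not overlap in either direction, while 15.9% had a lower log2 fold change than Sqstm1. Becn1 had a log2 fold change of 0.078 (SE 0.0340, edgeR adjusted p = 0.0659, unadjusted p = 0.0315), with an interval from 0.528% to 10.9%. That call depended on the scaling, since with library size alone the log2 fold change was 0.13 and passed the test (edgeR adjusted p = 0.00182). The TMM factors were 1.02 to 1.03 in the libraries of siRNA 1928 and 0.978 to 0.995 in the others. It also passed without replicate D of the control (0.098, adjusted p = 0.0328) and without replicate B of siRNA 1928 (0.095, adjusted p = 0.0399).

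The siRNAs were then compared directly, since both are directed at the same target. Sqstm1 was 0.17 higher with siRNA 1928 than with siRNA 1423 on the log2 scale (SE 0.0363, edgeR adjusted p = 0.000774), or 12.1% with an interval from 6.44% to 18.2%. With library size alone this difference was 0.23. In this contrast 21.3% of tested genes were called higher and 39.9% had groups that did not overlap in either direction. The 3 Sqstm1 levels therefore fell in the order control, siRNA 1928, siRNA 1423, with each neighbouring pair past the test.

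Becn1 was also higher with siRNA 1928 than with siRNA 1423, by 0.091 on the log2 scale (SE 0.0341, edgeR adjusted p = 0.0346), or 6.51% with an interval from 1.40% to 11.9%. With library size alone the difference was larger, at 0.15 (edgeR adjusted p = 0.000595). Its groups did not overlap, the lowest library of siRNA 1928 standing at 151 CPM and the highest of siRNA 1423 at 150 CPM. This call did not hold without replicate A (0.090, adjusted p = 0.0682) or B (0.076, adjusted p = 0.109) of siRNA 1423. Nor did it hold without replicate A (0.086, adjusted p = 0.0748), C (0.094, adjusted p = 0.0523) or D (0.075, adjusted p = 0.114) of siRNA 1928. The order of Becn1 levels was siRNA 1928, control, siRNA 1423. Neither neighbouring pair passed the test in the main fit (TMM scaling, all 12 libraries, no replicate block).

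**Figure D2:**
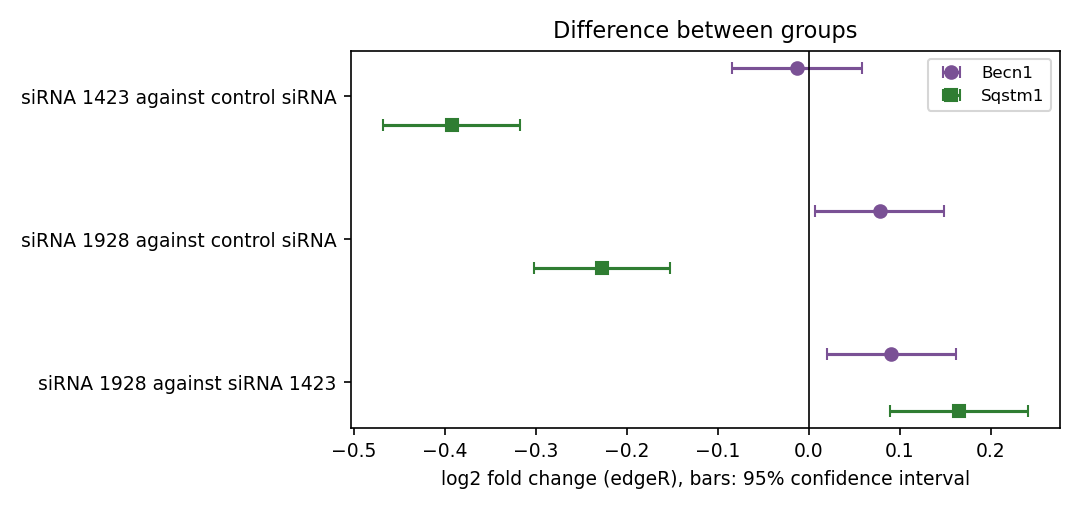
Log2 fold change (horizontal axis) of Becn1 (circles) and Sqstm1 (squares) in the 3 comparisons of groups, with bars for the 95% confidence interval from edgeR. Sqstm1 lies at -0.39 and -0.23 against control with intervals clear of 0, and the Becn1 interval spans 0 for siRNA 1423 and begins just above 0 for siRNA 1928, where its adjusted p was 0.0659.

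**Figure D3:**
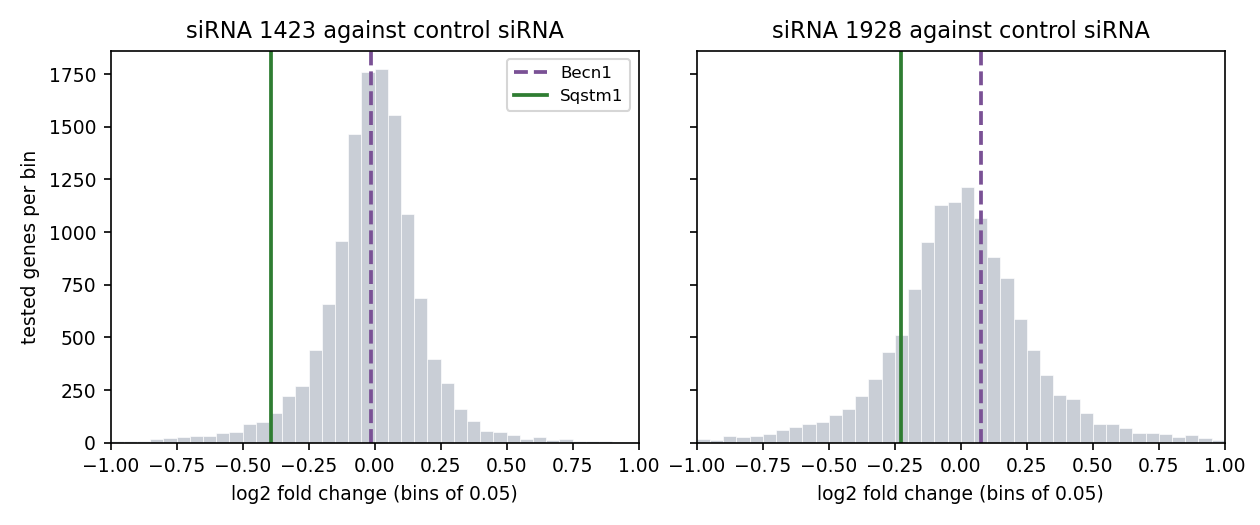
Numbers of tested genes (vertical axis) by log2 fold change against control (horizontal axis, bins of 0.05) for siRNA 1423 (left) and siRNA 1928 (right), with vertical lines at Becn1 (dashed) and Sqstm1 (solid). Sqstm1 lies in the left tail for siRNA 1423 and on the left shoulder for siRNA 1928, while Becn1 lies near the middle of both; 44 genes below -1 and 19 above 1 (left), and 80 and 78 (right), fall outside the axis.

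Sqstm1 in replicates C and D stood above A and B in all 3 groups. With this division as a term beside the group, the log2 difference (C and D minus A and B) was 0.10 for Sqstm1 and 0.063 for Becn1. The division was taken from earlier results of these same libraries, so these values are descriptions, and the labels do not say what the letters mark. With siRNA 1423 the log2 fold change of Sqstm1 against control was -0.40 in replicates A and B alone and -0.39 in C and D alone. With siRNA 1928 it was -0.21 and -0.24. No p-value of Sqstm1 within a part is given as support, because the division that sets the spread there came from these libraries. The difference of Sqstm1 between the siRNAs was 0.18 and 0.15 in these parts. Becn1 against control was 0.013 and -0.039 with siRNA 1423 and 0.11 and 0.045 with siRNA 1928, with edgeR adjusted p-values from 0.0509 to 0.898. Its difference between the siRNAs, 0.098 and 0.084, did not pass the test in either part (edgeR adjusted p = 0.0935 and 0.0849). The p-values of Becn1 within the parts share the limit given for Sqstm1. Each part also holds fewer libraries, so a missed threshold there does not show that a difference was absent.

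Dividing Sqstm1 counts by Becn1 counts within each library removes the scaling between libraries and asks whether the genes moved by different amounts. The control ratios were 4.91, 4.99, 5.01 and 4.92 in replicates A to D. They were 3.61, 3.84, 3.87 and 3.92 with siRNA 1423, and 3.90, 4.02, 4.15 and 3.99 with siRNA 1928. Neither siRNA group overlapped the controls, whose SD of 0.0477 around a mean of 4.96 was the smallest of the 3 groups. The means were 3.81 ± 0.137 for siRNA 1423 and 4.01 ± 0.100 for siRNA 1928 (SD, n = 4 each). As a ratio of counts of genes that differ in length, only its change between groups can be read, not its absolute size.

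On the log2 scale the ratio fell by 0.38 with siRNA 1423 and by 0.30 with siRNA 1928 against control. In each comparison the exact two-sided permutation p was 0.0286, the smallest that 4 against 4 libraries can give, and the value adjusted over the 3 comparisons was 0.0429. By this test Sqstm1 and Becn1 differed in their change against control with each siRNA. With libraries paired by letter, the exact sign-flip p was 0.125 for each siRNA, the smallest that 4 pairs can give. Separation from control was common for single genes, at 23.7% with siRNA 1423 and 39.4% with siRNA 1928. Its share over other pairs of genes was not computed. Between the siRNAs the ratio was 0.075 higher on the log2 scale with siRNA 1928, the groups overlapped by replicate A of siRNA 1928 and replicate D of siRNA 1423, and the exact permutation p was 0.0571 (adjusted 0.0571). The comparisons with control share the same 4 control libraries.

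**Figure D4:**
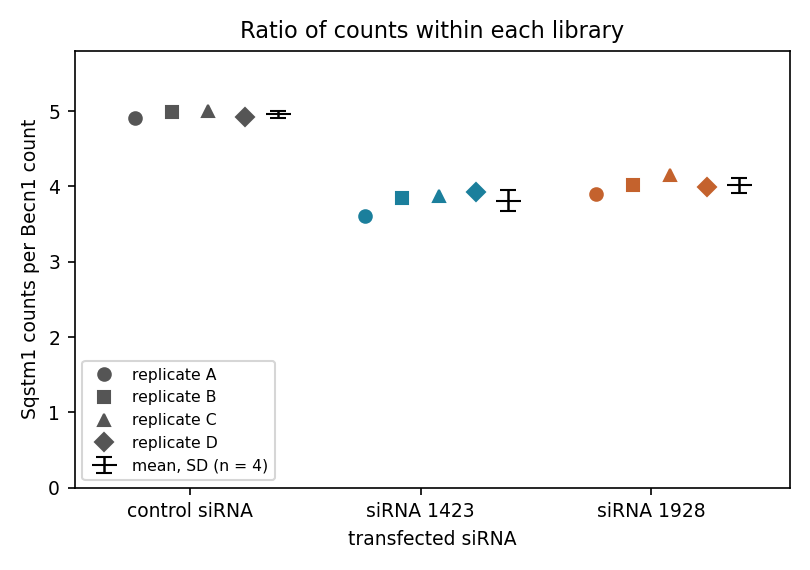
Sqstm1 counts per Becn1 count (vertical axis, starting at 0) within each library, by transfected siRNA. Each marker is 1 library with the replicate letter as its shape, and the black bars are the mean and SD of 4 libraries. The control libraries cluster at 4.91 to 5.01 and all 8 others lie between 3.61 and 4.15.

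The patterns over the 12 libraries were also set against those of 10499 other genes with a mean of at least 5 CPM. The gene most like Sqstm1 was ENSRNOG00000039980, whose log2 CPM correlated with it at r = 0.985 (Pearson) and rho = 0.993 (Spearman). Its level was 293 ± 10.7 CPM in the control, 235 ± 8.13 CPM in the siRNA 1423 group and 265 ± 8.06 CPM in that of siRNA 1928 (SD, n = 4 each), the same order of groups as Sqstm1. It fell by 0.32 and 0.14 on the log2 scale against control. No p-value is given for this fall, because the gene was chosen for following Sqstm1 over these same libraries. In all, 87 genes had an r above 0.9 with Sqstm1 and 12 with Becn1. The gene most like Becn1 was ENSRNOG00000046862 (r = 0.922, rho = 0.944), at 25.8 ± 1.94, 25.4 ± 0.632 and 27.7 ± 1.12 CPM in the control, siRNA 1423 and siRNA 1928 groups. Its changes against control were -0.019 and 0.11 on the log2 scale, given without a p-value for the same reason. With library size alone it ranked number 16 for Becn1, and ENSRNOG00000039980 ranked number 2 for Sqstm1. These correlations are descriptions, taken over libraries that share their groups and their scaling, and the files do not pair these IDs with symbols.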

How the data were processed

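The authors deposited 1 table of expected counts (estimated reads per Ensembl gene ID); each library has its own column, and 0 columns belong to other series. The unit was read from the values, 71.3% of which were whole. Both genes had fractional values in every library, and how the authors divided reads shared with similar genes is not given in the sources used here, nor are the aligner, the counting program or whether it used strand. Per the submitters' processing notes, the build was mRatBN7.2 and the tools included DESeq2 1.24.0, fastp 0.21.0 and bcl2fastq 2.20.

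Counts were rounded, filtered with filterByExpr (minimum count 10, minimum total 15), scaled by TMM and tested with the edgeR quasi-likelihood test (edgeR 4.0.16, limma 3.58.1, R 4.3.3) in 1 model of 3 group means over all 12 libraries, with Benjamini-Hochberg adjustment over 12731 genes and a threshold of 0.05. Library totals ran from 15671546 to 23247593 expected counts. Standard errors were derived from the F statistic. Ratios were compared by exact permutation. Similar genes were ranked by correlation of log2 CPM (prior count 2, mean of at least 5 CPM). Alternatives were library size alone, no filter, DESeq2 1.42.0, limma voom, a replicate block, fits of 2 groups, replicates A and B or C and D alone, and each library left out. Upstream sequence came from RefSeq (GRCr8).

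The named genes are Becn1, Sqstm1 and, for each, the gene most like it. They were chosen, and the tests written, with earlier results of these data known. Lists of other autophagy, lysosome, BCL2 family and NRF2 genes, and of cell type markers, were written by symbol. They could not be assigned to IDs and are not analysed here.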

Additional observations from a re-analysis of the deposited data

Results flagged for a closer look

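Both genes are listed because their change against control differed between the siRNAs by the direct test. Neither difference was unusual in size among the tested genes, 44.8% of which had a larger absolute difference than Sqstm1 and 66.0% a larger one than Becn1. In this contrast 21.3% of tested genes were called higher, and the groups did not overlap for 39.9%. The log2 difference (siRNA 1928 minus siRNA 1423) was 0.17 for Sqstm1 (edgeR adjusted p = 0.000774, all 4 libraries of siRNA 1928 above all 4 of siRNA 1423). For Becn1 it was 0.091 (edgeR adjusted p = 0.0346, likewise 4 above 4), a call that 8 of its 20 alternatives did not keep. Those 20 include 4 fits without a control library, which is not part of this comparison and hardly moved it. A search for a library far from the other 3 of its group, in 9 groups of values of the genes and their ratio, found 0; chance picks out about 1 in 20 such groups.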

How the results depend on the processing

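Sqstm1 kept its direction and its call in all 20 alternatives of each of its 3 comparisons. Among these, replicates A and B or C and D alone are a division taken from these same libraries and add no separate support. Leaving out 1 library at a time gave -0.42 to -0.37 for siRNA 1423 against control, -0.25 to -0.21 for siRNA 1928 against control and 0.14 to 0.19 between the siRNAs, on the log2 scale. The size of Sqstm1 changes did depend on the scaling. With library size alone they were -0.17 for siRNA 1928 against control and 0.23 between the siRNAs, both outside these ranges. For siRNA 1423 against control the value was -0.40. Becn1 with siRNA 1423 was near 0 and its sign turned with replicates A and B alone (0.013); leaving out single libraries gave -0.033 to 0.0077, the sign turning without replicate B of siRNA 1423 (0.0020) and without control replicate C (0.00070) or D (0.0077). No alternative brought it past the test. Becn1 with siRNA 1928 against control passed the test with library size alone (0.13) and with a replicate block (0.078, edgeR adjusted p = 0.0302), and ranged from 0.057 to 0.098 with 1 library left out. Its difference between the siRNAs lost its call without the filter (0.087), with replicates A and B alone (0.098) and with C and D alone (0.084), and ranged from 0.075 to 0.11 with 1 library left out. A lost call in those parts, which hold fewer libraries, does not show that the difference was absent.

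Same-letter libraries of different groups deviated together with correlations of 0.0296 to 0.134, all positive but weak. The same letter gave the highest correlation in more of these comparisons than not, though not in all. Because the correlations are weak, these values do not decide whether the letters pair the libraries. The main tests left the letters out because the labels do not say what they mark. Under the replicate block the log2 ratio of Sqstm1 to Becn1 against control was -0.38 and -0.30 with an exact sign-flip p of 0.125, the smallest that 4 pairs can give; with 1 library left out it ranged from -0.39 to -0.35 and from -0.32 to -0.29, and between the siRNAs from 0.050 to 0.090. Beside these ratios and Becn1 with siRNA 1928 against control, given above, the block changed no call. Mean CPM, the letter difference and the correlations were recomputed with library size alone, an alternative chosen after seeing the data, and kept their direction. Each library held at least 2383 counts of either gene.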
